A study of Homo sapiens with 12 samples.

Results

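Prostaglandin synthesis, breakdown and reception were followed through 9 genes of the 60645 gene names counted: PLA2G4A, PTGS1, PTGS2, PTGES, PTGES2, PTGES3, PTGER4, HPGD and PTGR1. The genes were chosen by name. PTGS2 led the choice because, in these same libraries, its response to EWS-FLI1 differed between ARID1A states. Its values are therefore given as a description with standard errors (SE) and no test, and the other 8 genes were tested. Of these 8, 6 passed the filter on low counts, and PTGS1 and PTGR1 did not.

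PolyA RNA had been sequenced from the HEK-293T line of human embryonic kidney after knockout of ARID1A. All 12 libraries come from that knockout line, named 12KO. The cells received an empty vector in place of ARID1A (called no ARID1A), WT ARID1A or ARID1A without the disordered segment IDR1b (ΔIDR1b), and on top of it a further empty vector or EWS-FLI1 (2 µg plasmid, harvest after 48 h). This made 6 groups of 2 libraries each, and the question put by the design was the part of IDR1b in gene regulation by EWS-FLI1. The parental line with intact ARID1A is not among these samples, and both ARID1A forms and EWS-FLI1 were overexpressed. The labels call them repeats 1 and 2 without saying whether they were separate cultures, so p-values measure the spread between these libraries, which may be technical. ARID1A is a subunit of the SWI/SNF chromatin remodelling complex, and EWS-FLI1 is the fusion transcription factor of Ewing sarcoma, which binds DNA at GGAA motifs.

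Prostaglandins are lipid signals made from arachidonic acid. A phospholipase (cytosolic phospholipase A2, from PLA2G4A) frees arachidonic acid from membranes, a cyclooxygenase (PTGS1, mostly constitutive, or PTGS2, inducible) turns it into prostaglandin H2, and terminal synthases such as those from PTGES, PTGES2 and PTGES3 turn that into prostaglandin E2. Prostaglandin E2 acts on cells through receptors such as the one from PTGER4, and the enzymes from HPGD and PTGR1 inactivate it. PTGS2 mRNA is short-lived, and proteins that bind AU-rich elements in it govern its decay.

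The libraries held 11702251 to 14445379 counts. On these raw totals 3 counts, the limit that a count of 0 allows, stood for 0.208 to 0.256 CPM (counts scaled to an equal library size). All other CPM values are corrected by TMM, the trimmed mean of M-values. FLI1, which reports the introduced fusion, had 0 to 3 counts per group with the empty vector. With EWS-FLI1 it reached 1759 ± 100 CPM in no ARID1A, 3568 ± 151 CPM in WT and 1897 ± 13.2 CPM in ΔIDR1b (SD, n = 2 each). ARID1A was at 156 to 160 CPM on average in the no-ARID1A groups. Where it had been added, it was higher in ΔIDR1b than in WT. With the empty vector it was at 2056 CPM in WT and 2787 CPM in ΔIDR1b (log2 difference 0.44, SE 0.09). With EWS-FLI1 it was at 2067 and 2615 CPM (0.34, SE 0.09). Of 6 markers of the labelled line, PAX2, LIN28B and NEFL were counted in every library, NEFH had 1 to 9 counts, NEFM had 0 or 1 count and SOX11 had 0 counts. Markers of macrophages and blood summed to 0.449 to 2.85 CPM and endothelial markers to 0.256 to 2.22 CPM. The summed fibroblast markers were at 87.3 to 98.2 CPM in no ARID1A, 93.0 to 117.7 CPM in WT and 122.5 to 134.5 CPM in ΔIDR1b. COL1A1 and COL3A1 made up most of that sum, and COL1A2 had 0 or 1 count in every library. The part of the FLI1 level, of the ARID1A level and of this marker gradient in the results below was not tested.

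The DNA ahead of PTGS2 and PLA2G4A is shown because both genes lie on chromosome 1 and EWS-FLI1 binds GGAA. The windows are the 250 bases before the RefSeq start (GRCh38), 5′ to 3′ on the strand of the gene. Capitals mark GGAA on either strand, so that TTCC is a match on the reverse strand. The PTGS2 window is chr1:186680424-186680673 on the minus strand and the PLA2G4A window is chr1:186828699-186828948 on the plus strand. All 9 genes matched a RefSeq window.

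PTGS2: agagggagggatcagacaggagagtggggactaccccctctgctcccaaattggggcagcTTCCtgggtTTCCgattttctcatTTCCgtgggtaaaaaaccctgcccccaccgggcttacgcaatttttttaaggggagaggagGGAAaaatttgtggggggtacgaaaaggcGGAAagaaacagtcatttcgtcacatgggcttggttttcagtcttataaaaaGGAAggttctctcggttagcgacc
PLA2G4A: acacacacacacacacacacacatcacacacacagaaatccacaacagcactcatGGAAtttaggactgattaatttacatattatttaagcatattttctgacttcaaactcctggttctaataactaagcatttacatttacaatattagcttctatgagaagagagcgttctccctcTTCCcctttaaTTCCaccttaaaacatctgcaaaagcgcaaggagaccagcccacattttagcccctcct

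The PTGS2 window held 6 GGAA matches, 3 on each strand, the nearest of them 20 bases from the start. The PLA2G4A window held 3. Over 35116 RefSeq windows of the same length the median was 3, and 92.7% held at least 1. The tandem GGAAGGAA, searched on both strands and overlapping GGAA, was in neither window and in 3.06% of all windows. The PTGS2 window also held 1 TATAAA, 26 bases from the start (in 10.7% of all windows), and 1 TGACG, the core of a cAMP response element, on the reverse strand 53 bases from the start (in 21.2%). CACGTG (6.34% of all windows) and the NF-kB pattern GGGRNNYYCC (9.96%) had no match in it. In that pattern R is A or G, Y is C or T and N is any base. Looser forms of these motifs were not searched, so a missing match does not show that the window lacks such a site. The matches are letters in a window and not measured binding sites. GENCODE places an upstream first exon of PTGS2 499 bases ahead of the RefSeq start, and the window lies between exons of that longer transcript and overlaps the beginning of PACERR, the noncoding RNA on the opposite strand.

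The 9 genes spanned a wide range of levels, compared here as mean CPM per kb of exonic length over the 12 libraries. PTGES3, which encodes the HSP90 co-chaperone p23 and has prostaglandin E synthase activity, stood at 156.6 CPM per kb. PTGES2, the membrane-associated synthase, followed at 13.83, PLA2G4A at 6.98, PTGS2 at 6.89 and PTGES, the inducible microsomal synthase, at 4.86 CPM per kb. HPGD (0.268), PTGER4 (0.147), PTGR1 (0.0658) and PTGS1 (0.0643 CPM per kb) were the lowest. Not divided by length, PTGER4 (0.520), PTGS1 (0.372) and PTGR1 (0.248 CPM) were near the limit of 0.208 to 0.256 CPM. HPGD, at 1.48 CPM, lay above it. The cyclooxygenase transcripts of these cells were thus almost all PTGS2.

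**Figure D1:**
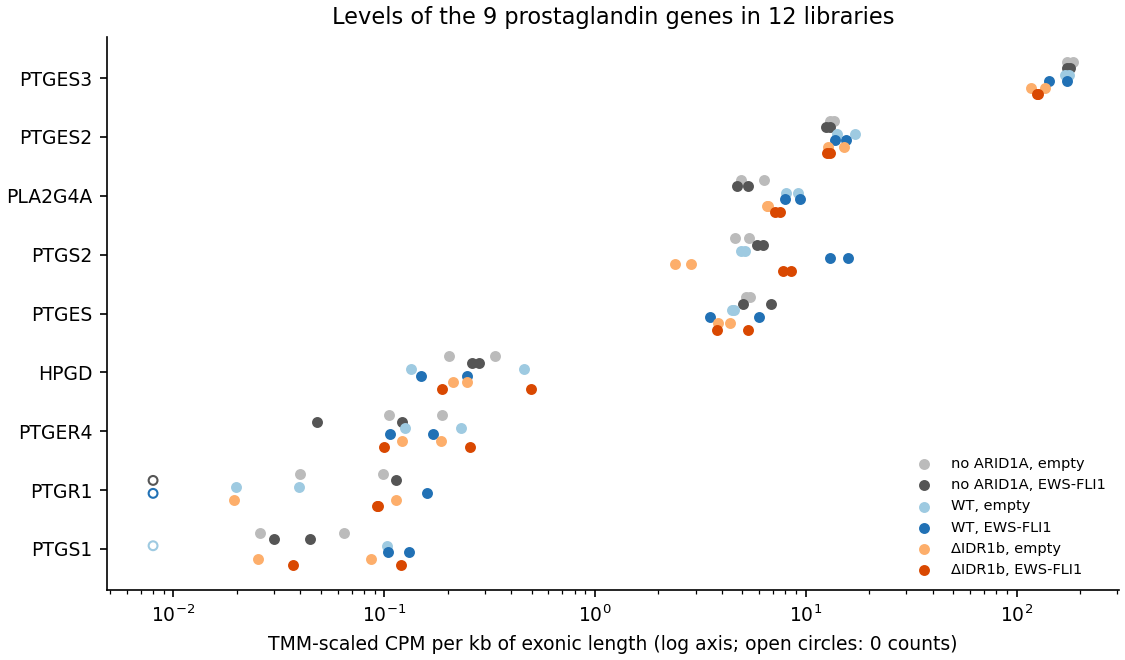
Level of each of the 9 genes in each of the 12 libraries, as TMM-scaled CPM per kb of exonic length on a log axis, with 1 point per library and colours for the 6 groups; open circles at the left edge are libraries with 0 counts. PTGES3 is highest in every library, and the PTGS2 points of WT and ΔIDR1b with EWS-FLI1 lie to the right of its other libraries.

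PTGS2 (chromosome 1, 186671791 to 186680922, minus strand) was highest in WT cells with EWS-FLI1 and lowest in ΔIDR1b cells with the empty vector. The 2 libraries of no ARID1A stood at 29.44 and 25.43 CPM with the empty vector and at 34.27 and 32.06 CPM with EWS-FLI1. Those of WT stood at 28.35 and 26.89 CPM and, with EWS-FLI1, at 87.39 and 71.41 CPM. Those of ΔIDR1b stood at 13.09 and 15.73 CPM and, with EWS-FLI1, at 46.5 and 42.82 CPM. Within each state both EWS-FLI1 libraries lay above both empty-vector libraries. In the order of group means, from 14.41 through 27.4, 27.6, 33.2 and 44.7 to 79.4 CPM, no ARID1A and WT with the empty vector overlapped, and every other pair of neighbours was separate, with 2 libraries a group.

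**Figure D2:**
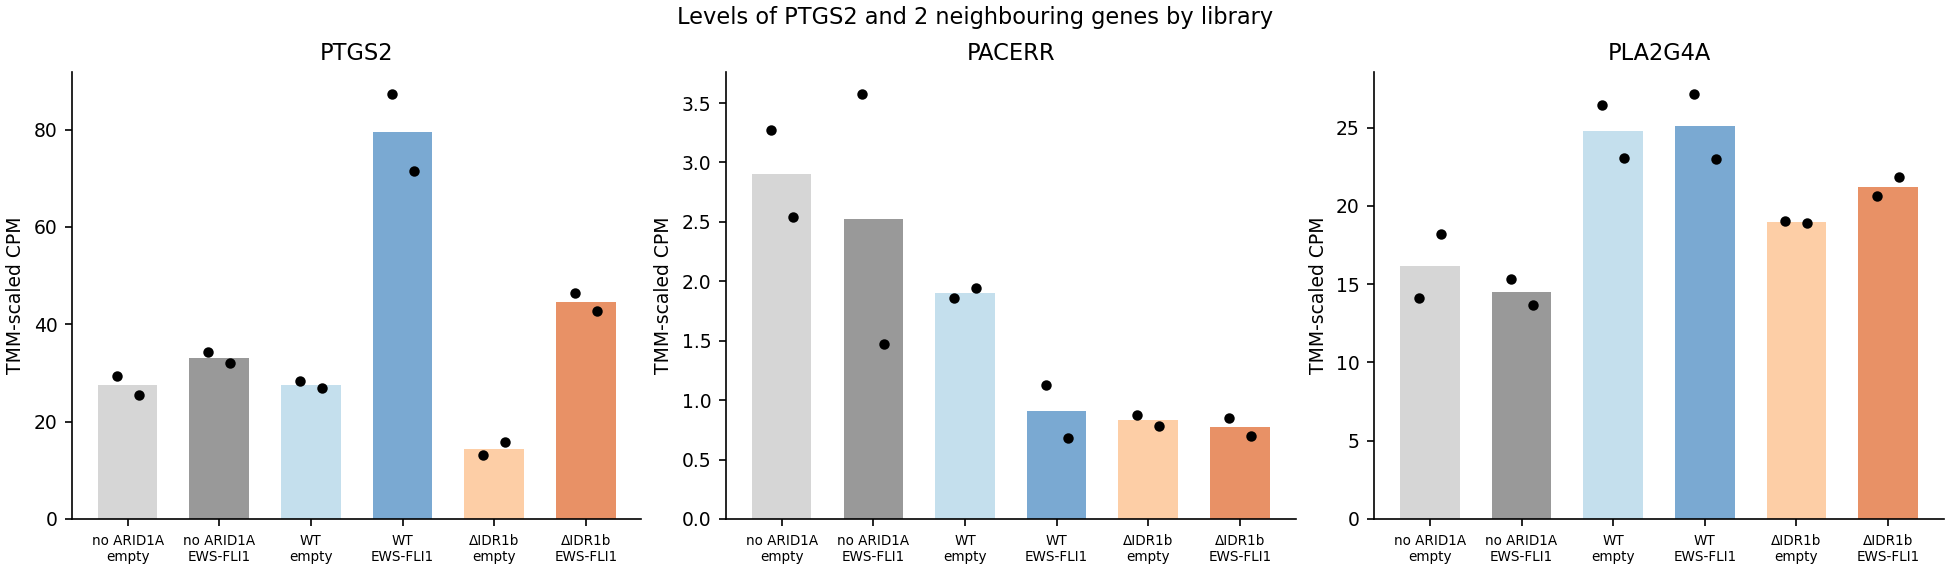
TMM-scaled CPM of PTGS2, its antisense neighbour PACERR and PLA2G4A in the 6 groups; bars are means of 2 libraries, points are the libraries and each panel has its own axis from 0. PTGS2 reaches 79.4 CPM in WT with EWS-FLI1, PACERR is at or below 1.129 CPM in all 6 libraries of WT with EWS-FLI1 and of ΔIDR1b, and PLA2G4A is highest in the 4 WT libraries.

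The log2 difference of PTGS2 between EWS-FLI1 and empty vector was 0.27 (SE 0.14) in no ARID1A, 1.52 (SE 0.14) in WT and 1.63 (SE 0.15) in ΔIDR1b. The difference between states in that effect came to 1.25 (SE 0.20) for WT against no ARID1A, 1.36 (SE 0.20) for ΔIDR1b against no ARID1A and 0.11 (SE 0.20) for ΔIDR1b against WT. On the log scale the effects with the 2 ARID1A forms differed by less than the SE of that difference, and both were larger than the effect without ARID1A. The added level was 51.78 CPM in WT, 30.25 CPM in ΔIDR1b and 5.73 CPM in no ARID1A, and ΔIDR1b had the lowest level with the empty vector. With the empty vector, ΔIDR1b lay 0.93 (SE 0.15) below no ARID1A and 0.94 (SE 0.15) below WT on the log2 scale, and WT and no ARID1A differed by 0.01 (SE 0.14). With EWS-FLI1, WT lay 1.26 (SE 0.14) and ΔIDR1b 0.43 (SE 0.14) above no ARID1A, and ΔIDR1b differed from WT by -0.83 (SE 0.13). These comparisons share libraries and are not independent of each other.

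FLI1 itself differed between the groups that received EWS-FLI1. In WT it was 2.03 times the level of no ARID1A, where PTGS2 was 2.39 times as high. In ΔIDR1b, FLI1 was 1.08 times the level of no ARID1A and PTGS2 1.35 times. From ΔIDR1b to WT the ratios were 1.88 for FLI1 and 1.78 for PTGS2. These are ratios of levels with EWS-FLI1, and the empty-vector levels of PTGS2 differed (27.43 CPM in no ARID1A, 27.62 in WT, 14.41 in ΔIDR1b). Against its own empty vector, PTGS2 was 1.21 times as high in no ARID1A, 2.87 times in WT and 3.10 times in ΔIDR1b. In bulk samples, more cells that express PTGS2 and more PTGS2 RNA per cell cannot be told apart.

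None of the tested members, which leave out PTGS2, passed the threshold for a response to EWS-FLI1. Of these 6, 0 were called (edgeR quasi-likelihood test, Benjamini-Hochberg adjusted p under 0.05 over 20377 genes) for EWS-FLI1 in no ARID1A, where 0.0442% of all genes were called, in WT (0.221%), in ΔIDR1b (0.172%) or averaged over the states (0.466%). At an unadjusted p under 0.05 the count was also 0 in each, and DESeq2 called 0. The 4 abundant ones, PLA2G4A, PTGES, PTGES2 and PTGES3, had log2 differences of -0.16 to 0.16 (SE 0.10 to 0.24, adjusted p 0.873 to 1). For PTGER4 and HPGD the SE was 0.57 to 0.97, so a difference could have been missed at this depth. The differences between states in the effect were called for 0 of 6 in WT against no ARID1A (0.0245% of all genes), in ΔIDR1b against no ARID1A (0.0196%) and in ΔIDR1b against WT (0%), with 0 at an unadjusted p under 0.05 and 0 by DESeq2. For the 4 abundant members those differences ran from -0.11 to 0.32 (log2). A p that misses the threshold does not show that these effects were alike in the 3 states.

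**Figure D3:**
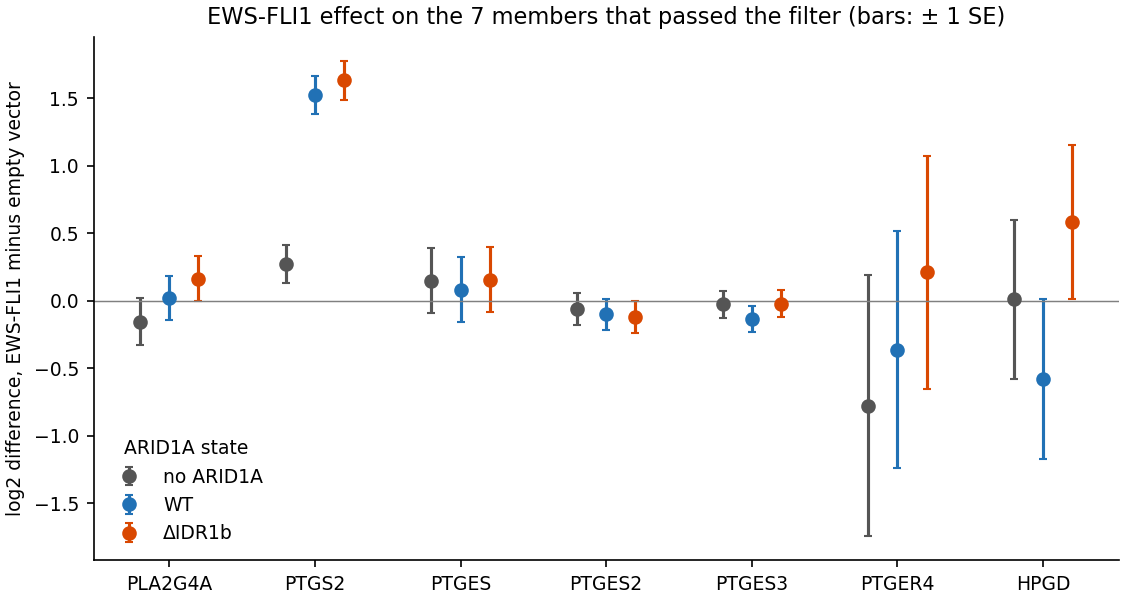
Log2 difference between EWS-FLI1 and empty vector in the 3 ARID1A states for the 7 members that passed the filter; points are model estimates from 2 libraries a group and bars are ± 1 SE. PTGS2 stands at 1.52 and 1.63 in WT and ΔIDR1b and at 0.27 in no ARID1A, and PLA2G4A, PTGES, PTGES2 and PTGES3 lie between -0.16 and 0.16.

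Between ARID1A states, PLA2G4A and PTGES3 differed. PLA2G4A (chromosome 1, 186828949 to 186988981, plus strand), which supplies the substrate of PTGS2, stood with the empty vector at 14.12 and 18.17 CPM in no ARID1A, 26.41 and 23.08 CPM in WT and 19.01 and 18.87 CPM in ΔIDR1b. With EWS-FLI1 it stood at 15.34 and 13.65 CPM, 27.17 and 22.97 CPM and 20.6 and 21.83 CPM in the same order. All 4 WT libraries lay above the other 8, and the ΔIDR1b libraries lay between WT and no ARID1A with either vector.

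PLA2G4A was 0.62 (log2, SE 0.17) higher in WT than in no ARID1A with the empty vector (adjusted p = 0.013), as 1 of the 6 tested members called where 11.7% of all genes were. That call was lost without repeat 1 of no ARID1A with the empty vector (log2 0.45, adjusted p = 0.212) and without repeat 1 of WT with the empty vector (0.52, adjusted p = 0.165). With EWS-FLI1 the difference was 0.79 (SE 0.17, adjusted p = 0.0011), the 1 member called beside 18.1% of all genes, and it held in 19 of 19 alternatives (adjusted p 6.16e-05 to 0.0352). ΔIDR1b with the empty vector was 0.23 above no ARID1A (adjusted p = 0.312), a difference that came to 0.06 without repeat 1 of no ARID1A with the empty vector and was called in 0 of 19 alternatives. ΔIDR1b with EWS-FLI1 was 0.55 (SE 0.17) above no ARID1A (adjusted p = 0.0114), a call lost without repeat 2 of either group (adjusted p = 0.122 and 0.0712). ΔIDR1b and WT differed by -0.39 with the empty vector (adjusted p = 0.084). That difference was called with repeats blocked inside each vector (adjusted p = 0.0489) and in a fit of only these 4 libraries (adjusted p = 0.0478), over a range up to 0.388. With EWS-FLI1 ΔIDR1b differed from WT by -0.24 (adjusted p = 0.321).

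PTGES3 (chromosome 12, 56663341 to 56688408, minus strand) was lower in ΔIDR1b than in the other states. With the empty vector its libraries stood at 591.5 and 628.2 CPM in no ARID1A, 601.1 and 576.6 CPM in WT and 399.7 and 466.2 CPM in ΔIDR1b. With EWS-FLI1 they stood at 608.1 and 589.1 CPM, 589.9 and 483 CPM and 425.8 and 427.9 CPM in the same order. The 4 ΔIDR1b libraries lay below all 8 others. ΔIDR1b differed from no ARID1A by -0.49 (log2, SE 0.10) with the empty vector (adjusted p = 2e-04, the 1 member called beside 33.3% of all genes) and by -0.49 (SE 0.10) with EWS-FLI1 (adjusted p = 0.000213). With EWS-FLI1 it was 1 of 2 members called, with PLA2G4A, beside 35.9% of all genes. Both of these PTGES3 calls held in 19 of 19 alternatives.

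Against WT, PTGES3 in ΔIDR1b differed by -0.44 (SE 0.10) with the empty vector (adjusted p = 0.00116, the 1 member called beside 24.5% of all genes) and by -0.33 (SE 0.10) with EWS-FLI1 (adjusted p = 0.0181, the 1 member called beside 18.6%). The former was lost without repeat 1 of ΔIDR1b with the empty vector (-0.34, adjusted p = 0.0617). The latter was lost without repeat 1 of WT with EWS-FLI1 (-0.18, adjusted p = 0.22), without either ΔIDR1b library with EWS-FLI1 (adjusted p = 0.0838 and 0.0613) and in a fit of only these 4 libraries (adjusted p = 0.139). WT and no ARID1A differed by -0.05 with the empty vector (adjusted p = 0.794) and by -0.16 with EWS-FLI1 (adjusted p = 0.288). The WT difference with EWS-FLI1 was called without repeat 1 of WT (-0.31, adjusted p = 0.0217). With 11.7% to 35.9% of all genes called in these state comparisons, 1 or 2 of 6 members is no result about the members as a group. PTGES3 has 5 pseudogene names in the table with 317 counts against 84477 for PTGES3. Fragments that map to several places were not counted, so its level may be understated.

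**Figure D4:**
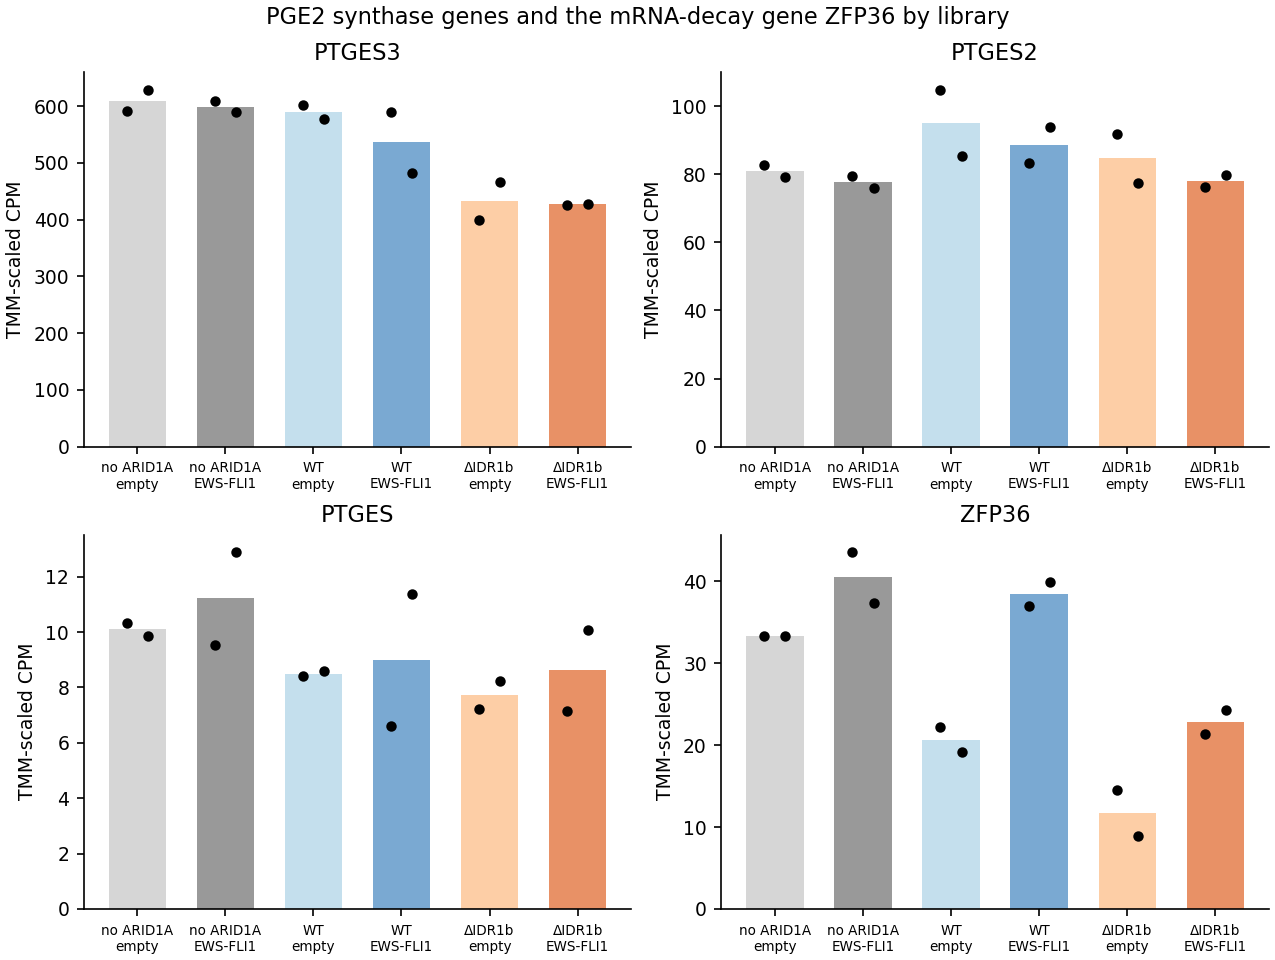
TMM-scaled CPM of the synthase genes PTGES3, PTGES2 and PTGES and of ZFP36, whose protein promotes the decay of AU-rich mRNAs, in the 6 groups; bars are means of 2 libraries, points are the libraries and each axis starts at 0. The ΔIDR1b bars of PTGES3 stand at 433 and 426.9 CPM, below the others, and ZFP36 is lowest in ΔIDR1b with the empty vector.

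The other synthases, the receptor and the breakdown enzymes passed no test. PTGES2 ran from 75.87 to 104.7 CPM and PTGES from 6.62 to 12.88 CPM over the 12 libraries, and libraries of different groups overlapped for both. HPGD ran from 0.744 to 2.76 CPM (10 to 39 counts) and PTGER4 from 0.171 to 0.904 CPM (2 to 13 counts). PTGS1 had 0 to 10 counts per library, with 0 in 1 WT library with the empty vector. PTGR1 had 0 to 8 counts, with 0 in 1 library each of no ARID1A and WT with EWS-FLI1. PTGS1 and PTGR1 were not tested, and at such counts a difference in PTGER4 or HPGD could have been missed.

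Within 1 Mb of the PTGS2 start, 20 genes have an exon, 12 had at least 10 counts over the 12 libraries and 9 were tested, PTGS2 among them. None of the 8 tested neighbours was called for EWS-FLI1 in any state by edgeR (adjusted p 0.767 to 1), 0 had an unadjusted p under 0.05 and DESeq2 called 0. The neighbours were HMCN1, PRG4, TPR, ODR4, PDC-AS1, PACERR, PLA2G4A and LINC01036. PDC, ENSG00000228238 and FDPSP1 were counted too rarely to be tested. PLA2G4A begins 148.03 kb from the PTGS2 start.

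**Figure D5:**
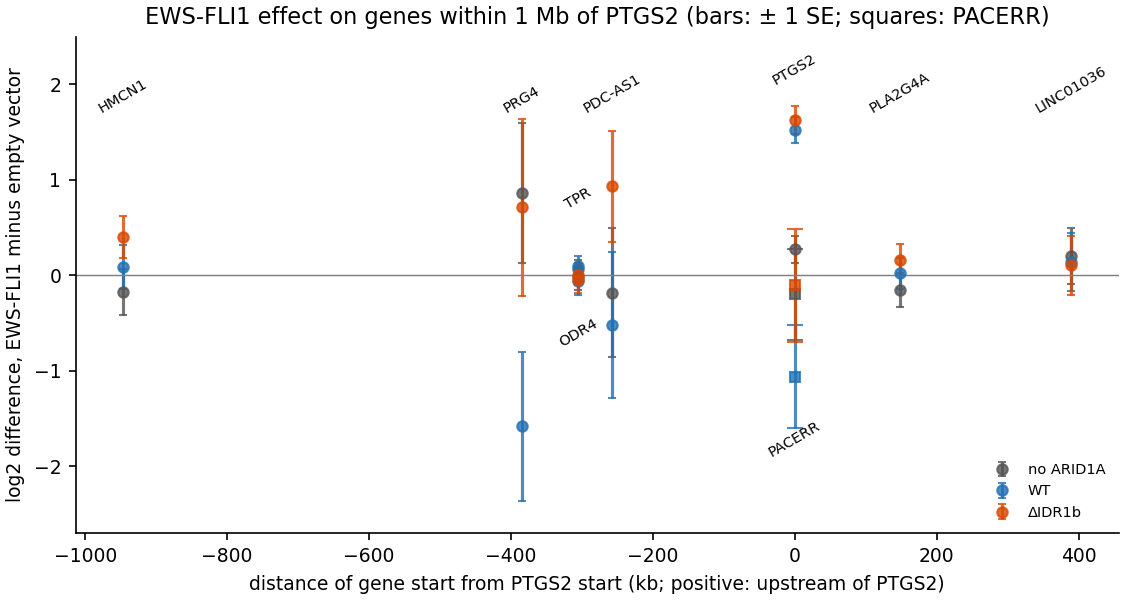
Log2 difference between EWS-FLI1 and empty vector for the 9 tested genes within 1 Mb of the PTGS2 start, against the distance of each gene's start in kb, in the 3 ARID1A states; circles are estimates, squares are those of PACERR and bars are ± 1 SE. PTGS2 in WT and ΔIDR1b lies at 1.52 and 1.63, and TPR, ODR4 and PLA2G4A lie between -0.16 and 0.16 in all 3 states.

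PACERR (chromosome 1, 186680601 to 186683165, plus strand) is the noncoding RNA that runs away from PTGS2 on the opposite strand. Its libraries stood at 3.271 and 2.543 CPM in no ARID1A with the empty vector and at 3.58 and 1.469 CPM with EWS-FLI1. In WT they stood at 1.86 and 1.942 CPM with the empty vector and at 1.129 and 0.682 CPM with EWS-FLI1. The ΔIDR1b libraries lay between 0.695 and 0.877 CPM with either vector, below all 4 no-ARID1A libraries.

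ΔIDR1b differed from no ARID1A in PACERR by -1.79 (log2, SE 0.53) with the empty vector (adjusted p = 0.00818) and by -1.70 (SE 0.54) with EWS-FLI1 (adjusted p = 0.0129). The former was lost without repeat 1 of no ARID1A (adjusted p = 0.0677) or repeat 2 of ΔIDR1b (adjusted p = 0.0647). The latter was lost without repeat 1 of no ARID1A (log2 -0.92, adjusted p = 0.357) or repeat 2 of ΔIDR1b (adjusted p = 0.0827). There were 54.75 to 104.7 PTGS2 counts per PACERR count in the 4 libraries of WT and ΔIDR1b with EWS-FLI1, and 9 to 21.82 in the other 8. PACERR had 9 to 15 counts in those 4 libraries, and 12 and 11 in ΔIDR1b with the empty vector. PTGS2 was chosen for its pattern in these libraries, so the ratio repeats that pattern and is no separate result. No strand option was set in the counting, so reads of the pair cannot be told apart by strand. Of the exonic bases of PTGS2, 3.99% overlap PACERR, and fragments there were not counted.

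Among the other neighbours, HMCN1, which encodes hemicentin, was 1.01 higher in ΔIDR1b than in no ARID1A with EWS-FLI1 (log2, adjusted p = 0.000793), a call lost without repeat 1 of ΔIDR1b with EWS-FLI1 (0.69, adjusted p = 0.0595). PDC-AS1 was 2.61 higher in ΔIDR1b than in WT with EWS-FLI1 (adjusted p = 0.00628). These groups held 43 and 44 counts against 4 and 9, and no ARID1A with EWS-FLI1 held 21 and 2. The call was lost without repeat 1 of WT with EWS-FLI1 (log2 2.14). HMCN1 against WT and PDC-AS1 against no ARID1A, both with EWS-FLI1, and PRG4 against WT with the empty vector were also called, and those calls were lost in 3, 4 and 5 of 19 alternatives.

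The wider pathway was read from 47 other genes, of which 38 were tested. Members of it changed with the ARID1A state, and with EWS-FLI1 ZFP36 was the 1 gene called by edgeR. ZFP36, whose protein (tristetraprolin) promotes the decay of AU-rich mRNAs such as that of PTGS2, rose with EWS-FLI1 in WT by 0.90 (log2, SE 0.16, adjusted p = 0.00359) and in ΔIDR1b by 0.96 (SE 0.18, adjusted p = 0.00405). It stood with the empty vector at 33.3 and 33.28 CPM in no ARID1A, 22.25 and 19.12 CPM in WT and 14.55 and 8.936 CPM in ΔIDR1b. With EWS-FLI1 it stood at 43.56 and 37.42 CPM, 37.03 and 39.95 CPM and 21.38 and 24.26 CPM in the same order. Within each state the EWS-FLI1 libraries lay above the empty-vector libraries.

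The ZFP36 call in WT was lost without repeat 2 of WT with the empty vector (adjusted p = 0.235). In ΔIDR1b it was lost without repeat 2 of the empty vector (0.65, adjusted p = 0.745) or of EWS-FLI1 (adjusted p = 0.0934). The average over the states was 0.71 (adjusted p = 1.18e-05) and held in 18 of 18 alternatives. ZFP36 was the 1 pathway gene called by edgeR for EWS-FLI1 in WT, in ΔIDR1b and in the average, where DESeq2 called 2, and 0 of 38 were called in no ARID1A (0 by DESeq2). At an unadjusted p under 0.05 the counts were 1 in no ARID1A, 5 in WT, 4 in ΔIDR1b and 5 in the average. Of all 20377 genes, 643, 1331, 1110 and 1610 passed that threshold in the same order. For differences between states in the effect, 0 of 38 were called, and 0 by DESeq2. At an unadjusted p under 0.05 there were 2 for WT against no ARID1A (884 of all genes). There were 3 for ΔIDR1b against no ARID1A (702 of all genes) and 0 for ΔIDR1b against WT (741). Nothing particular to the pathway list is read from these unadjusted counts.

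ZFP36 and its relative ZFP36L1 were lower in ΔIDR1b than in the other states. Their relative ZFP36L2 was not. With EWS-FLI1, ZFP36L2 was higher than in no ARID1A, by 0.49 in ΔIDR1b (adjusted p = 0.00456) and 0.43 in WT (adjusted p = 0.023). With the empty vector neither difference was called (0.13 and 0.04, adjusted p = 0.5 and 0.887). In ΔIDR1b against no ARID1A, ZFP36 differed by -1.50 with the empty vector (adjusted p = 2.79e-08) and by -0.83 with EWS-FLI1 (adjusted p = 0.000144). ZFP36L1, a decay factor of the same family, differed by -1.22 (adjusted p = 4.08e-11) and -1.32 (adjusted p = 7.45e-12). Against WT, ZFP36L1 in ΔIDR1b differed by -0.90 (adjusted p = 1e-07) and -1.05 (adjusted p = 8.14e-09), and ZFP36 by -0.82 (adjusted p = 0.000864, lost without repeat 2 of ΔIDR1b with the empty vector, adjusted p = 0.0875) and -0.75 (adjusted p = 0.0012). Each of these ZFP36L1 calls and both ZFP36 calls against no ARID1A held in 19 of 19 alternatives. Both were also lower in WT than in no ARID1A with the empty vector. There ZFP36 differed by -0.69 (adjusted p = 0.00533, called in 18 of 19 alternatives). ZFP36L1 differed by -0.32 (adjusted p = 0.0332, called in 10 of 19). In WT against no ARID1A with EWS-FLI1, ZFP36 (38.49 and 40.49 CPM on average) and ZFP36L1 (156.8 and 188.9 CPM) were not called (adjusted p = 0.8 and 0.0621). PTGS2 was also lowest in ΔIDR1b with the empty vector. HNRNPD, which also binds AU-rich elements, was lower in ΔIDR1b than in no ARID1A (-0.65 and -0.71, adjusted p = 4.44e-06 and 9.48e-07). ELAVL1, whose protein stabilizes such mRNAs, was higher there (0.44 and 0.46, adjusted p = 0.000571 and 0.000277). ELAVL1 was also higher in WT than in no ARID1A (0.46 and 0.45, adjusted p = 0.0013 and 0.000943). Under EWS-FLI1, HNRNPD was lower in WT than in no ARID1A (-0.52, adjusted p = 0.000339). Its empty-vector difference between these states was not called (-0.24, adjusted p = 0.116). Under the empty vector, ELAVL1 in ΔIDR1b differed from WT by -0.03 (adjusted p = 0.866). HNRNPD differed there by -0.41 (adjusted p = 0.00246, called in 18 of 19 alternatives). Of the 8 AU-rich element binding genes, 4 were called in ΔIDR1b against no ARID1A with the empty vector, 1 higher and 3 lower, and 5 with EWS-FLI1, 2 higher and 3 lower, where 33.3% and 35.9% of all genes were called. Nothing particular to this role is read from these counts.

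Among the 8 tested phospholipases and arachidonate handling genes, 4 were called in ΔIDR1b against no ARID1A with the empty vector, where 33.3% of all genes were. PLA2G4C, a cytosolic phospholipase, was 1.24 higher (SE 0.33, adjusted p = 0.00381), a call lost without repeat 2 of no ARID1A (adjusted p = 0.0548). ACSL4, which loads arachidonic acid onto coenzyme A, was 0.47 higher (adjusted p = 0.00449) and PLAAT3 0.66 higher (adjusted p = 0.00381, lost without repeat 1 of ΔIDR1b with the empty vector, adjusted p = 0.0766). PLA2G6, a calcium-independent phospholipase, differed by -0.72 (adjusted p = 0.000198). In WT against no ARID1A, ACSL4 was 0.60 higher (adjusted p = 0.00175) and PLA2G6 differed by -0.67 (adjusted p = 0.00195), and the ACSL4 and PLA2G6 calls held in 19 of 19 alternatives with either vector. In PLA2G6, 22.8% of the exonic bases overlap other genes, and fragments there were not counted.

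Of the receptors, TBXA2R, which binds thromboxane, was 0.91 higher in ΔIDR1b than in no ARID1A with the empty vector (SE 0.22, adjusted p = 0.00184). PTGER3, a further prostaglandin E2 receptor, was 1.59 higher with EWS-FLI1 (SE 0.63, adjusted p = 0.0481), and that call was lost in 11 of 19 alternatives. Its libraries stood at 1.656 and 1.819 CPM in WT and 2.336 and 2.085 CPM in ΔIDR1b with EWS-FLI1, and the other 8 lay between 0.223 and 0.950 CPM. The EWS-FLI1 difference of PTGER3 was not called in WT (unadjusted p = 0.0184, adjusted p = 0.649) or in ΔIDR1b (unadjusted p = 0.0184, adjusted p = 0.816). Over the pathway list, 7 of 38 tested genes were called in WT against no ARID1A with the empty vector (4 higher, 3 lower) and 6 with EWS-FLI1 (4 higher, 2 lower). In ΔIDR1b against no ARID1A 11 were called with the empty vector (6 higher, 5 lower) and 12 with EWS-FLI1 (7 higher, 5 lower). In ΔIDR1b against WT 7 were called with the empty vector (2 higher, 5 lower) and 5 with EWS-FLI1 (2 higher, 3 lower). The median log2 difference of the list ran from -0.004 to 0.22 over these 6 comparisons, and that of all genes tested from -0.02 to 0.02. The shares of all genes called in these comparisons are those given above, and nothing particular to the list is read from its counts.

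Likeness to PTGS2 was measured as Pearson's r of log2 CPM over the 12 libraries, across 15129 candidate genes. The 5 most alike were PHLDA1 (r = 0.966), ZDHHC23 (0.912), KIT (0.897), EWSR1 (0.885) and SGK1 (0.879). The libraries share their ARID1A state and vector, and EWSR1 counts include the introduced fusion, so these values describe the pattern and carry no test. PHLDA1 stood at 4.21, 5.11 and 2.85 CPM in no ARID1A, WT and ΔIDR1b with the empty vector and at 5.41, 7.93 and 5.72 CPM with EWS-FLI1. SGK1, a kinase, stood at 7.68, 8.76 and 4.96 CPM and at 20.6, 27.2 and 16.3 CPM in the same order. Among the members the r with PTGS2 ran from -0.115 for PTGER4 to 0.383 for PLA2G4A.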

How the data were processed

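PolyA RNA sequencing libraries of 12 samples in 6 groups were used. Per the file headers, the authors counted read pairs per gene with featureCounts 2.0.1 on GENCODE release 41 (GRCh38, patch 13), requiring both ends aligned, with no strand option and no fragments of several places. The deposited counts are not normalized. STAR, SAMtools and edgeR are named in the submitters' processing notes, and the aligner's version is not given in the sources used here.

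From these counts, genes were kept by filterByExpr (minimum count 10, minimum total 15), which left 20377, scaled by TMM and fitted with edgeR 4.0.16 (limma 3.58.1, R 4.3.3) over all 12 libraries with 1 mean per group. The quasi-likelihood F-test was 2-sided, with Benjamini-Hochberg adjustment over all genes in each of 13 contrasts and calls at an adjusted p under 0.05. Common biological variation was 10.11%. CPM values use TMM-scaled library sizes, except the counting limits, which use raw totals. Each SE is the log2 difference divided by the square root of F. The procedure was tested on simulated data. Counting limits cover counting error only.

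The members, pathway list, markers and rule for named genes were chosen with earlier results of these data known. The rule named all members, pathway genes with a mean of at least 1 CPM called with a log2 change of at least 1, up to 3 per role, genes within 1 Mb of PTGS2 with at least 10 counts, and the 5 genes most like PTGS2. Other pathway genes and their examples were named after their values were seen. PTGR3 was counted under its older name ZADH2.

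Pairing was checked over 10695 genes. The difference between repeats correlated positively between groups with the same vector (r 0.104 to 0.412 in 6 of 6 pairs). Between vectors the correlation was negative in all 9 pairs (-0.223 to -0.008), in some as large in size as within a vector. By the values and not the labels, libraries with equal numbers thus went together within each vector. Across vectors they did not, and whether repeats are linked there under other numbers was not tested. The main fit held no block on the repeat. Alternatives were other scalings, DESeq2 1.42.0, no filter, only the libraries compared, the repeat number as a block, and leaving out each library.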

Additional observations from a re-analysis of the deposited data

How the results depend on the processing

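Of 65 called results for single genes, 27 kept their call under every alternative run, and 0 changed direction. For 66 uncalled member values other than the PLA2G4A and PTGES3 comparisons of ARID1A states, 88 of 1240 alternative values changed sign and 1 was called. Of those PLA2G4A and PTGES3 comparisons, 3 alternative values were called, as given above for PLA2G4A in ΔIDR1b against WT and PTGES3 in WT against no ARID1A.

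Only the libraries compared gave 2 members called instead of 1 with the empty vector in ΔIDR1b against WT, and 0 instead of 1 with EWS-FLI1. The replicate block within each vector gave 2 members for the former and 2 pathway genes instead of 1 for the EWS-FLI1 average, where DESeq2 also gave 2. For pathway genes in ΔIDR1b against WT with EWS-FLI1, DESeq2 gave 3 and only the libraries compared 2, instead of 5. The replicate block over all libraries kept each count of members, for example 1 for PLA2G4A with EWS-FLI1 in WT against no ARID1A, and PTGS2 in WT moved by less than its SE.

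Leaving out each library in turn, members called ran from 0 to 1 for WT against no ARID1A with the empty vector, from 1 to 2 for it with EWS-FLI1, from 1 to 2 for ΔIDR1b against no ARID1A with EWS-FLI1, and from 0 to 1 for ΔIDR1b against WT with either vector. A lone library was assumed to vary like the other groups. Pathway genes called ran from 1 to 2 for the EWS-FLI1 average, from 0 to 1 in WT and in ΔIDR1b, from 4 to 9 for WT against no ARID1A with the empty vector, from 4 to 6 for it with EWS-FLI1, from 8 to 14 and 7 to 13 for ΔIDR1b against no ARID1A with the empty vector and EWS-FLI1, and from 3 to 8 for ΔIDR1b against WT with either vector. The PTGS2 difference in WT ran from 1.37 to 1.66.

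Upper-quartile scaling changed the split of all-gene calls from 1324 higher and 1057 lower to 898 and 1381 for WT against no ARID1A with the empty vector, from 1981 and 1703 to 1505 and 2062 with EWS-FLI1, and from 2267 and 2728 to 2791 and 2184 with the empty vector in ΔIDR1b against WT. It moved no median over all genes by 0.1 (log2). Counts of 0 to 39 limit PTGS1, PTGR1, PTGER4 and HPGD.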
